A study of Sus scrofa with 3 samples.

Results

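The miR-30 family comprised miR-30a, miR-30b, miR-30c, miR-30d and miR-30e, whose 5p and 3p arms were read from small RNA libraries of pig liver. Members were all lines of the authors' tables whose hairpin name, without species prefix and copy number, was mir-30a, b, c, d or e, in the groups of known hairpins. These were 17 of 1346 lines at E90, 23 of 1224 at P30d and 14 of 886 at P7y, and summing copies gave 10 mature arms among 987 with a read. Livers came from male pigs of the Chinese breed Jinhua, with no treatment or genetic change named in the labels, taken on embryonic day 90 (E90), in late gestation, on day 30 after birth (P30d) and in year 7 after birth (P7y). Each stage has 1 library, although 3 pigs are named for it in the labels, and whether their RNA was pooled is not stated there. Stage, animal and library therefore cannot be told apart, and every interval given here covers counting error only, without the spread between animals. The intervals also take reads as independent, so they are too narrow where PCR copies of a molecule are read repeatedly.

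A microRNA hairpin is cut from a longer transcript by Drosha and Dicer into a duplex with a 5p and a 3p strand, one of which usually stays in the Argonaute protein while the other is mostly lost. The retained strand recognises messenger RNAs mainly through its seed, bases 2 to 8. The miR-30 family is abundant in liver and kidney. In zebrafish, loss of miR-30a disturbs bile duct formation, and in mouse the family was described in the developing bile duct plate. In vertebrates its hairpins lie in pairs, each of which pairs a relative of miR-30a with miR-30b or a copy of miR-30c.

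The mature sequences, as the authors' tables list them, show what the members share. They are written 5′ to 3′ with T for U and with the seed in capitals.
miR-30a-5p: tGTAAACAtcctcgactggaag
miR-30d-5p: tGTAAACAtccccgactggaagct
miR-30e-5p: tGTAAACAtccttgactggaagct
miR-30b-5p: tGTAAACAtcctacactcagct
miR-30c-5p: tGTAAACAtcctacactctcagc
All 5p arms carried the seed GTAAACA. Counting from 1 at the 5′ end of miR-30a-5p, miR-30d-5p differed from it by T12C alone and miR-30e-5p by C13T alone, over 22 bases compared. The miR-30c-5p sequence differed at 5 bases (C13A, G14C, G18C, G19T and A20C) and miR-30b-5p at 7, among them the same C13A, G14C and G18C. By sequence, miR-30a, miR-30d and miR-30e were thus near-identical, and miR-30b and miR-30c resembled each other in the 3′ part.

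The 3p arms carried other seeds and divided the hairpins in the same way.
miR-30a-3p: cTTTCAGTcggatgtttgcagc
miR-30d-3p: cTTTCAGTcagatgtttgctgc
miR-30e-3p: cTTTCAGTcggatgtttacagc
miR-30b-3p: cTGGGAGGtggatgtttactt
miR-30c-1-3p: cTGGGAGAgggttgtttact
miR-30c-2-3p: cTGGGAGAaggctgtttactct
The seed TTTCAGT was shared by 3 arms, those of miR-30a, miR-30d and miR-30e. Counted along miR-30a-3p, miR-30e-3p differed by G18A alone and miR-30d-3p by G10A and A20T. The seed TGGGAGA belonged to both copies of miR-30c, and miR-30b-3p had TGGGAGG. The copies of miR-30c have the same 5p arm, so its reads could not be assigned to a copy. Their 3p arms differed by G9A and T12C, counted along the arm of copy 1, and could be told apart.

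The 6 hairpins lay in 3 pairs on the Sscrofa10.2 build named in the submitters' processing notes. The hairpins of miR-30a (chr1:57750736-57750842) and miR-30c-2 (chr1:57721666-57721775) were on the minus strand with 28960 bases between them. Those of miR-30d (chr4:6713514-6713596) and miR-30b (chr4:6717636-6717724) were on the plus strand, 4039 bases apart. Those of miR-30e (chr6:157476641-157476742) and miR-30c-1 (chr6:157473588-157473684) were on the minus strand, 2956 bases apart. In the RefSeq gene table of assembly Sscrofa11.1, miR-30e and miR-30c-1 lie within the span of NFYC, a subunit of the CCAAT-binding factor NF-Y. In that table miR-30a and miR-30c-2 lie within a protein-coding gene without a name, and ZFAT, a zinc finger gene, is the nearest protein-coding gene to miR-30b and miR-30d. The hairpins of the first pair are shown because their 3p arms moved in opposite directions at P30d, with the reads of each arm in capitals.
miR-30a hairpin: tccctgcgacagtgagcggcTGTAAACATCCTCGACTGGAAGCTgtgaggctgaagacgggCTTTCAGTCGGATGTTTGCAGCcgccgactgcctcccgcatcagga
miR-30c-2 hairpin: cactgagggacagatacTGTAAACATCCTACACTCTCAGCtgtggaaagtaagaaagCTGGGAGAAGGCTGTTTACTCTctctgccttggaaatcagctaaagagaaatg

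Known miRNAs had 9243601, 3622993 and 9920207 reads in the E90, P30d and P7y libraries. Levels are counts per 1000000 of these reads (CPM), in which 3 reads made 0.325 CPM at E90, 0.828 CPM at P30d and 0.302 CPM at P7y. Hepatocyte miRNAs (miR-122, miR-192, miR-194, miR-148a, miR-101 and miR-802) made 40.7%, 38.8% and 42.4% of reads at E90, P30d and P7y, with 14 or 15 of 15 arms read in each library. The summed markers of other cell types differed between the stages. Biliary epithelial markers (miR-200a, miR-200b, miR-200c, miR-141, miR-429, miR-31 and miR-375) made 0.210%, 0.0465% and 0.0936% of reads at E90, P30d and P7y, with 10, 11 and 9 of 12 arms read. Leukocyte markers made 0.0980%, 0.345% and 0.0946%, and erythroid markers 0.724%, 0.303% and 0.182%, with 6 or 7 of 7 and 6 of 6 arms read. Members of these sums went different ways. The log2 ratio of CPM in P30d over E90 was 2.98 for miR-142-5p, 4.31 for miR-150-5p and 0.55 for miR-155-5p. It was -0.04 for miR-142-3p and -2.56 for miR-223-3p. The erythroid miR-451-5p, miR-486-5p and miR-144-5p were at -1.56, -1.36 and -4.42, and miR-144-3p was at 0.29. The endothelial miR-126 (2 to 4 of 5 arms read) made 1.33%, 1.19% and 1.36%. Mesenchymal markers (8 or 9 of 9 arms read) made 5.93%, 6.66% and 11.4%. Mesenchymal miRNAs also went different ways by CPM. In P7y over P30d miR-143-3p and miR-145-5p were at 2.53 and 2.17. There miR-199a-5p, miR-214-3p and miR-214-5p were at -3.99, -1.48 and -1.86. In P30d over E90 miR-143-3p and miR-145-5p were at -1.53 and -0.19, and miR-199a-5p and miR-214-3p at 3.59 and 2.38. Arms without a read were minor strands or variants, such as miR-141-5p and miR-200c-5p at E90 and P7y. The part of these shifts in the results on miR-30 was not tested, and in bulk liver fewer cells of a type and less RNA per cell cannot be told apart.

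The family took 7.76%, 6.98% and 5.46% of all known miRNA reads in the E90, P30d and P7y libraries. The exact Clopper-Pearson intervals at 95% ran from 7.75% to 7.78%, from 6.95% to 7.00% and from 5.44% to 5.47%. On the log2 scale the family sum at P30d lay -0.15 from E90, that at P7y -0.35 from P30d and that at P7y -0.51 from E90. Under the TMM scaling of edgeR the last values turned to 0.63 for P7y over P30d and 0.51 for P7y over E90, so no direction is given for the sum at P7y. TMM moved the median log2 ratio of the 326 miRNAs compared (those averaging at least 10 CPM) by 0.99 in P7y over P30d and by 1.02 in P7y over E90, and DESeq2 size factors moved it by 1.16 and 1.08.

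Reads of the family came almost entirely from 5p arms, which held 99.5%, 99.0% and 99.5% of them at E90, P30d and P7y. The order miR-30a-5p, miR-30d-5p, miR-30e-5p, miR-30c-5p, miR-30b-5p held at E90 and P7y. At P30d miR-30e-5p stood above miR-30d-5p, and the intervals of neighbours in the order did not overlap in any library. With the most frequent read of each arm only, miR-30e held 30.3% of the family and miR-30d 17.2% at E90, and miR-30b stood above miR-30c at P30d (10.3% and 9.16%) and at P7y (2.003% and 1.61%). The spread between animals at a stage is unknown, so these orders describe the libraries.

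miR-30a-5p, the most abundant member, had 39277 CPM at E90, 29878 CPM at P30d and 33261 CPM at P7y. It ranked 7th of all miRNAs at E90 and P30d and 9th at P7y. miR-30d-5p had 19658 CPM at E90, 13777 CPM at P30d and 14182 CPM at P7y. By CPM both stayed within a 2-fold range over the 3 libraries, whereas with TMM P7y was 2.21-fold P30d for miR-30a-5p and 2.04-fold for miR-30d-5p. miR-30e-5p had 15470 CPM at E90, 15574 CPM at P30d and 5775 CPM at P7y, and P7y was the low library. With TMM its log2 ratios were -0.44 in P7y over P30d and -0.41 in P7y over E90, both under 2-fold.

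The sequence relatives miR-30b and miR-30c followed another course. miR-30c-5p had 1748 CPM at E90, 5514 CPM at P30d and 600.3 CPM at P7y. miR-30b-5p had 1134 CPM at E90, 4341 CPM at P30d and 460.3 CPM at P7y. For both arms P30d was the high library and P7y the low one. Reads of miR-30b-5p without a mismatch were 95.4%, 94.3% and 94.8% of its total at E90, P30d and P7y, and of miR-30c-5p 94.5%, 89.1% and 91.9%.

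**Figure D1:**
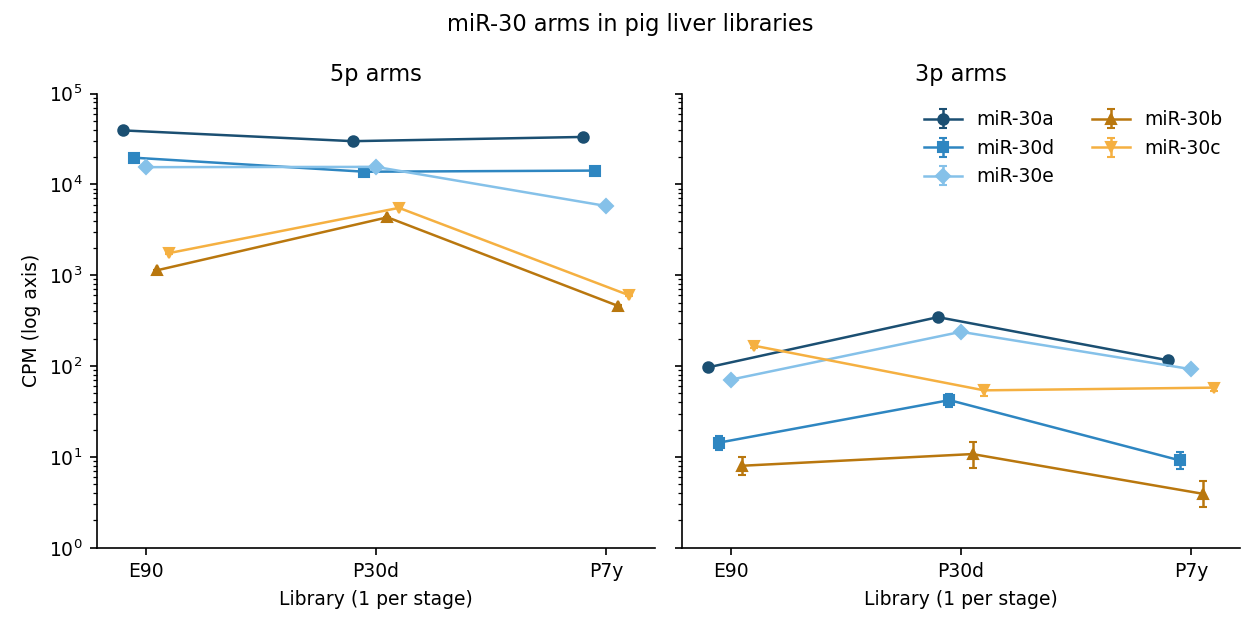
CPM of each miR-30 arm (log axis) in the E90, P30d and P7y libraries, 1 per stage, with 5p arms left and 3p arms right. Points are libraries and bars exact Poisson 95% intervals, which are smaller than many symbols. miR-30b-5p and miR-30c-5p peak at P30d with 4341 and 5514 CPM. miR-30c-3p is high at E90 with 168.0 CPM, and its P30d and P7y values, 54.1 and 58.0 CPM, have overlapping intervals.

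Within the family, miR-30a held 50.7%, 43.3% and 61.2% of reads at E90, P30d and P7y. miR-30d held 25.3%, 19.8% and 26.0%, and miR-30e 20.0%, 22.7% and 10.8%. The remaining members were minor outside P30d. miR-30c held 2.47%, 7.98% and 1.21% and miR-30b 1.47%, 6.24% and 0.851%. Together miR-30b and miR-30c made 3.94%, 14.2% and 2.06% of family reads in the E90, P30d and P7y libraries. These shares are free of library scaling, since numerator and denominator are from the same library.

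**Figure D2:**
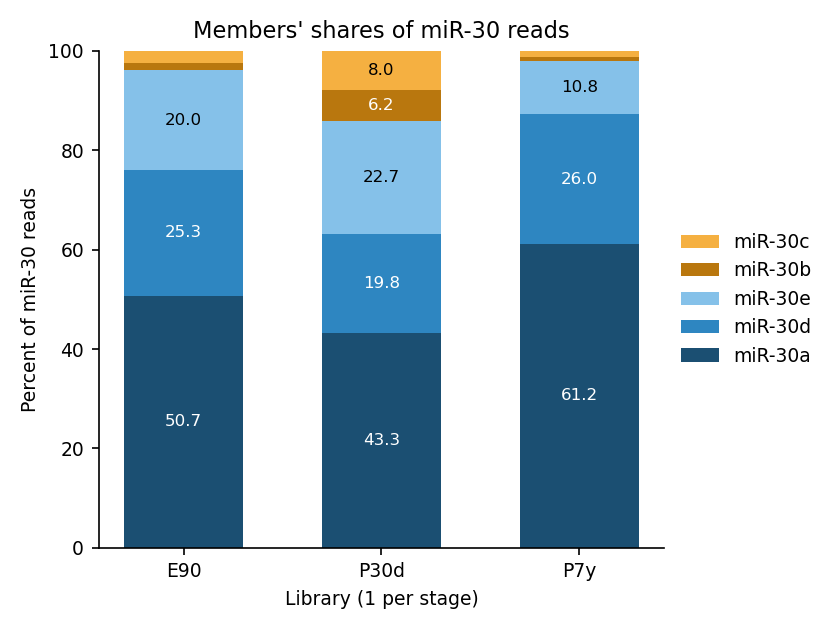
Percent of all miR-30 reads held by each member in the E90, P30d and P7y libraries (1 per stage), 5p and 3p arms summed. The miR-30b and miR-30c segments reach 6.24% and 7.98% at P30d, and miR-30a fills 61.2% of the bar at P7y.

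Development from late gestation to the first month was read from P30d over E90. An arm was called higher or lower where its CPM differed by 2-fold or more and the exact conditional binomial 95% interval of the log2 ratio left out 0. Of the 10 arms, 9 averaged at least 10 CPM and were compared, and miR-30b-3p was not. At P30d 5 arms were called higher than at E90, 1 lower and 3 neither, where over all 326 miRNAs 33.4% were called higher and 35.3% lower. The median of the 9 arms was 1.55 and that of all miRNAs -0.11, and the counts were the same with TMM and DESeq2 factors. Over all miRNAs TMM then called 34.4% higher and 34.4% lower, and DESeq2 32.5% and 37.4%.

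The arms called higher at P30d were miR-30b-5p (log2 ratio 1.94, interval 1.90 to 1.97), miR-30c-5p (1.66, 1.63 to 1.69), miR-30a-3p (1.84, 1.71 to 1.97), miR-30e-3p (1.75, 1.60 to 1.90) and miR-30d-3p (1.55, 1.21 to 1.90). The call of miR-30d-3p was lost with reads without a mismatch only, at 0.84, and with its most frequent read only, at 0.77, which is a different sequence at P30d than at E90. The arm called lower at P30d was miR-30c-3p, at -1.63 (-1.86 to -1.42). The abundant 5p arms were not called: miR-30a-5p had -0.39, miR-30d-5p -0.51 and miR-30e-5p 0.01, and the last turned to -0.07 under DESeq2 factors. Arms of one hairpin thus stood at different ratios, since the 3p arms of miR-30a, miR-30d and miR-30e were called higher while their 5p arms were not.

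**Figure D3:**
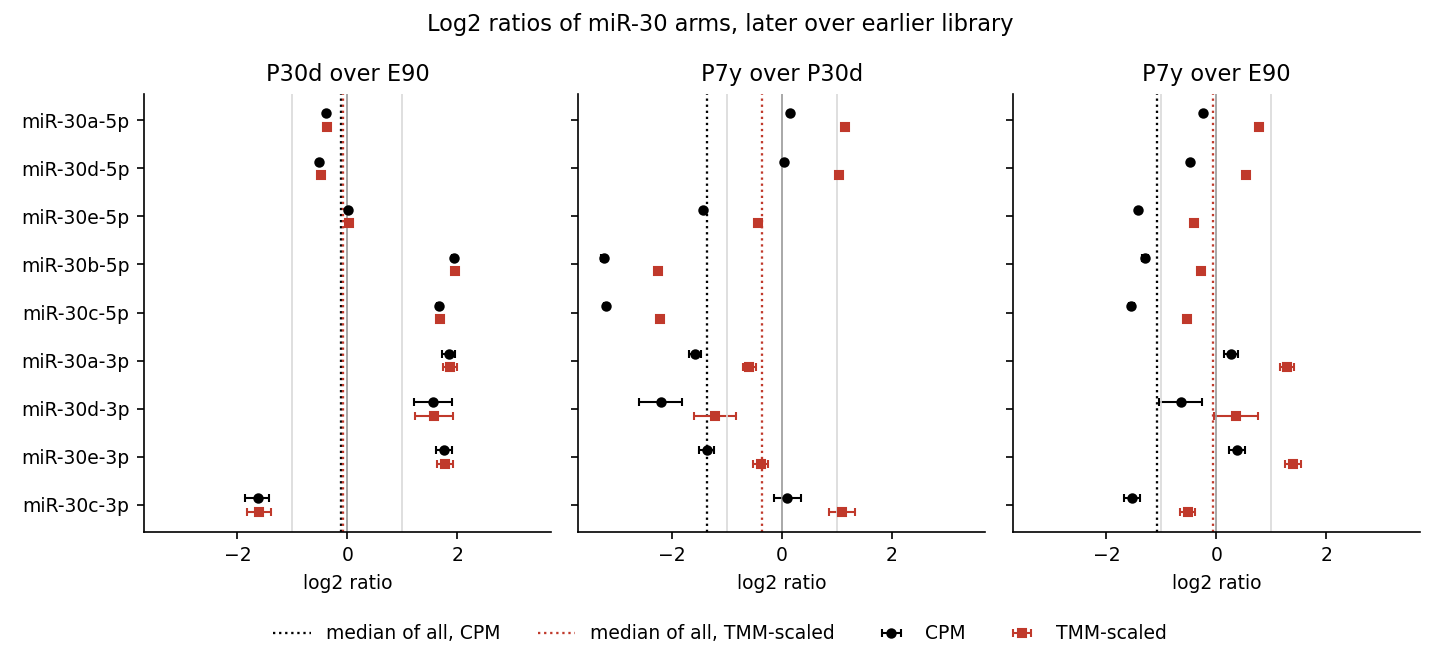
Log2 ratios of the 9 miR-30 arms that averaged at least 10 CPM, in P30d over E90, P7y over P30d and P7y over E90, from CPM (black) and TMM-scaled CPM (red), with exact 95% counting intervals. Dotted lines mark the median of all 326 miRNAs and pale lines a 2-fold difference. TMM moves the medians of the right-hand panels by 0.99 and 1.02, and miR-30b-5p and miR-30c-5p stay beyond the 2-fold line in P7y over P30d.

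Adult liver was set against the young pig in P7y over P30d. By CPM 0 arms were called higher at P7y and 6 lower, where over all miRNAs 13.8% were higher and 55.8% lower. With TMM 3 arms were higher and 3 lower, where 27.0% and 36.2% of all miRNAs were called, and with DESeq2 also 3 and 3, beside 29.8% and 31.6%. The calls that held under CPM, TMM and DESeq2 factors were lower values of miR-30b-5p, miR-30c-5p and miR-30d-3p at P7y. miR-30b-5p had a CPM log2 ratio of -3.24 (-3.29 to -3.19) and miR-30c-5p of -3.20 (-3.24 to -3.16), and with TMM these were -2.25 and -2.21. miR-30d-3p had -2.20 (-2.59 to -1.82) by CPM and -1.21 by TMM. With DESeq2 factors it had -1.04 (-1.43 to -0.66), close to the threshold, and it rested on 153 reads at P30d and 91 at P7y.

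The other arms moved with the scaling in P7y over P30d. Relative to the median of all miRNAs, -1.36 by CPM, miR-30a-5p stood at 1.51, miR-30d-5p at 1.40 and miR-30c-3p at 1.46. Their CPM log2 ratios were 0.15, 0.04 and 0.10, none called, and with TMM they were 1.14, 1.03 and 1.09, called higher at P7y. miR-30e-5p was called lower by CPM at -1.43 and stood near the median, at -0.08 relative to it. miR-30a-3p and miR-30e-3p were likewise called lower by CPM, at -1.58 and -1.37, and not by TMM, at -0.59 and -0.38.

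Across the whole span, P7y over E90, 0 arms were called higher by CPM and 4 lower, where over all miRNAs 12.3% were higher and 50.9% lower. The 4 were miR-30b-5p at -1.30, miR-30c-5p at -1.54, miR-30e-5p at -1.42 and miR-30c-3p at -1.54. The call of miR-30b-5p was lost, at -0.98, when the most abundant miRNAs were left out of the total. By TMM none of these was called, and 2 arms were called higher at P7y, miR-30a-3p at 1.28 and miR-30e-3p at 1.40, where 27.6% of all miRNAs were higher and 33.7% lower. DESeq2 factors called the same number, beside 28.2% higher and 33.4% lower over all. By CPM those arms had 0.26 and 0.38. The signs of miR-30a-5p, miR-30d-5p and miR-30d-3p, -0.24, -0.47 and -0.65 by CPM, turned with TMM to 0.78, 0.55 and 0.37, so no direction is given for them. These 3 comparisons share libraries and are not independent of each other.

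The 3p arms were scarce and had a pattern of their own. miR-30a-3p had 96.6 CPM at E90, 345.8 CPM at P30d and 115.7 CPM at P7y. miR-30e-3p had 70.9 CPM at E90, 238.5 CPM at P30d and 92.3 CPM at P7y, and miR-30d-3p 14.4, 42.2 and 9.17 CPM. P30d was the high library for these 3 arms. miR-30c-3p had 168.0 CPM at E90, 54.1 CPM at P30d and 58.0 CPM at P7y, with E90 as the high library. miR-30b-3p rested on 74, 39 and 39 reads at E90, P30d and P7y, or 8.01, 10.8 and 3.93 CPM.

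The share of 3p reads in the sum of both arms compares arms within a library and does not depend on its depth. At E90, P30d and P7y it was 0.245%, 1.14% and 0.347% for miR-30a and 0.0731%, 0.306% and 0.0646% for miR-30d. For miR-30e it was 0.456%, 1.51% and 1.57%. P30d was the high library for miR-30a and miR-30d, and E90 the low one for miR-30e. For miR-30c the share was 8.77%, 0.971% and 8.81% and for miR-30b 0.701%, 0.247% and 0.847%, and P30d was the low library for both. All shares were below the median of the 193 hairpins that had 50 reads or more in every library, which was 18.5%, 20.6% and 23.3%. Copies of a hairpin were summed here under 1 name, those of miR-30c included.

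The change of the 5p over 3p balance from E90 was taken as a log2 odds ratio. At P30d over E90 it was -2.23 (exact conditional interval -2.36 to -2.11) for miR-30a, -2.07 (-2.41 to -1.72) for miR-30d and -1.74 (-1.89 to -1.59) for miR-30e. For miR-30b it was 1.50 (0.93 to 2.11), and for miR-30c it was 3.29 (3.07 to 3.52). So all 5 members differed by 2-fold or more, 3 toward 3p and 2 toward 5p, and among the 193 hairpins 57.0% differed that far, 36.3% toward 3p and 20.7% toward 5p. In every comparison the value of miR-30c sums both copies, whose 5p reads cannot be assigned. Their 3p arms stood at 1.47 for copy 1, on few reads, and -1.91 for copy 2 in P30d over E90. The change of miR-30c is thus not that of a single hairpin, and the part of a shift between copies was not tested. A change of balance was common in this pair of libraries. The change of miR-30d was -1.48 with reads without a mismatch and -0.68, under 2-fold, with the most frequent read of each arm only. Those reads of miR-30d differ between the libraries in both arms. Among hepatocyte miRNAs, chosen here after their values were seen, the minor strands miR-122-3p, miR-192-3p and miR-194-3p also had more CPM at P30d than at E90, with log2 ratios of 4.21, 3.52 and 2.22, while the minor strand miR-148a-5p was at 0.27 and not called.

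**Figure D4:**
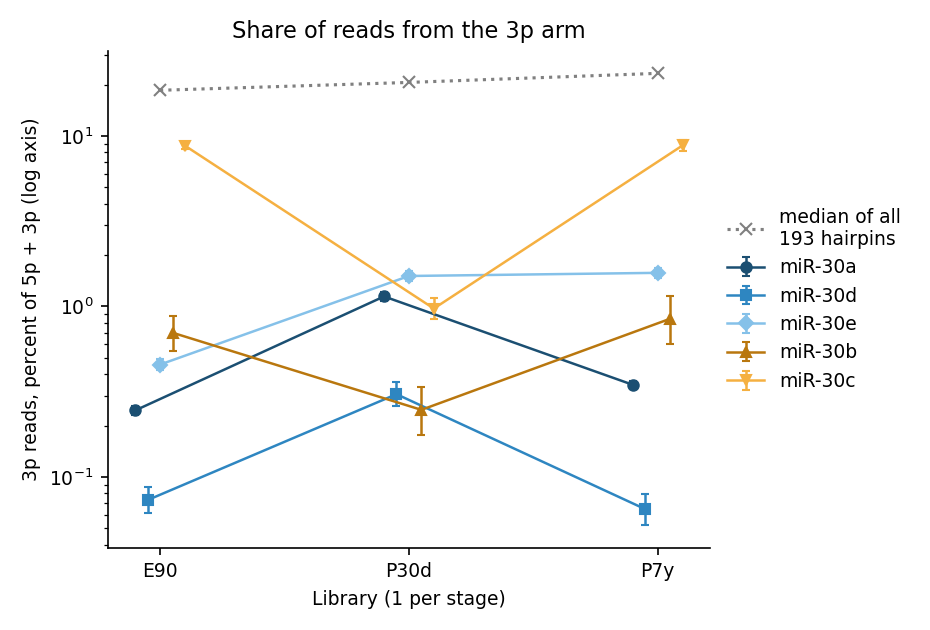
Percent of 3p reads among 5p and 3p reads (log axis) of each member in the E90, P30d and P7y libraries, 1 per stage, with exact Clopper-Pearson 95% intervals, and the median of 193 hairpins (dotted). At P30d the share is high in miR-30a, miR-30d and miR-30e (1.14%, 0.306% and 1.51%) and low in miR-30b and miR-30c (0.247% and 0.971%).

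From P30d to P7y the balances of 4 members turned back. At P7y over P30d the change was 1.73 for miR-30a, 2.24 for miR-30d, -1.78 for miR-30b and -3.30 for miR-30c, each beyond 2-fold. Of the 193 hairpins 60.6% differed that far, 28.0% toward 3p and 32.6% toward 5p. For miR-30e the change was -0.06 (-0.20 to 0.07), and 0.65 with the most frequent reads only. At P7y over E90 only miR-30e differed by 2-fold or more, at -1.80 (-1.95 to -1.66), where 45.1% of hairpins did, 26.9% toward 3p and 18.1% toward 5p. The change of miR-30c in that comparison was -0.01, with an interval of -0.15 to 0.14.

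Reads of the 3p arms of miR-30a, miR-30d and miR-30e also held more mismatches at P30d. For miR-30a-3p 83.3%, 68.6% and 72.2% of reads were without a mismatch at E90, P30d and P7y, for miR-30d-3p 88.0%, 57.0% and 70.7%, and for miR-30e-3p 88.0%, 73.5% and 80.5%. For miR-30c-3p these were 94.8%, 93.4% and 91.0%. Some 5p arms were lowest at P30d too: miR-30a-5p, at 94.1%, 88.5% and 90.2%, and miR-30b-5p and miR-30c-5p, given above. miR-30d-5p (91.1%, 88.5% and 87.8%) and miR-30e-5p (94.8%, 91.8% and 90.3%) were lowest at P7y. Reads of all known miRNAs were not lowest at P30d, with 81.4%, 86.1% and 78.3% without a mismatch. With such reads only, the P30d ratios of miR-30a-3p and miR-30e-3p to E90 were still called higher. The part of mismatched reads in the 3p levels was otherwise not tested.

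The 3p arm of miR-30c came mostly from copy 2, the neighbour of miR-30a. Copy 2 had 1518, 158 and 533 3p reads at E90, P30d and P7y and copy 1 had 35, 38 and 42, so that copy 2 held 97.7% (96.9 to 98.4), 80.6% (74.4 to 85.9) and 92.7% (90.3 to 94.7). In CPM, miR-30c-2-3p was at -1.91 (-2.16 to -1.68) in P30d over E90 and called lower, while miR-30c-1-3p was at 1.47 (0.77 to 2.18) on 38 reads at P30d and 35 at E90. With 10.5 and 3.79 CPM there and 4.23 CPM at P7y, miR-30c-1-3p averaged under 10 CPM and no call is given for it. The lower miR-30c-3p at P30d was thus the 3p arm of copy 2. In P7y over E90 miR-30c-2-3p was at -1.61 and miR-30c-1-3p at 0.16. The authors' tables divide 5p reads almost evenly between the copies, 8084 for copy 2 and 8075 for copy 1 at E90, but with identical sequences these numbers measure neither copy.

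Neighbouring hairpins can come from a single primary transcript, so the ratio of their arms was taken in each library. miR-30a-3p over miR-30c-2-3p was 0.588 (0.541 to 0.639) at E90, 7.93 (6.72 to 9.42) at P30d and 2.15 (1.94 to 2.39) at P7y. On the log2 scale it changed by 3.75 (3.48 to 4.03) in P30d over E90. The arms of this pair thus crossed, with more miR-30c-2-3p than miR-30a-3p at E90 and less at P30d and P7y. With the most frequent read of each arm only, the log2 ratio at P7y was -0.02.

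miR-30d-5p over miR-30b-5p was 17.3 (17.0 to 17.7) at E90, 3.17 (3.12 to 3.23) at P30d and 30.8 (29.9 to 31.7) at P7y. The ratio of the 3p arms of the same pair was 1.80 (1.34 to 2.42), 3.90 (2.73 to 5.69) and 2.33 (1.59 to 3.49). On the log2 scale the 5p ratio changed by -2.45 (-2.49 to -2.41) in P30d over E90 and the 3p ratio by 1.11 (0.43 to 1.81), or by 0.48 with reads without a mismatch. In P7y over P30d the 5p ratio changed by 3.28 (3.23 to 3.33), while the interval of the 3p change, -0.74 (-1.53 to 0.05), included 0. With the most frequent reads only, the 5p ratio was 5.61, 1.52 and 10.9 at E90, P30d and P7y.

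miR-30e-3p over miR-30c-1-3p was 18.7 (13.3 to 27.1) at E90, 22.7 (16.4 to 32.4) at P30d and 21.8 (16.0 to 30.5) at P7y. The log2 change in P30d over E90 was 0.28, with an interval that began at -0.44 and included 0. The 35 to 42 reads of miR-30c-1-3p leave wide intervals. With the most frequent read of each arm only, which for miR-30c-1-3p was 20 nt at P30d and 22 nt at E90 and P7y, the ratio was 9.74, 35.9 and 12.0 at E90, P30d and P7y, so the likeness of the libraries depended on which reads were counted.

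**Figure D5:**
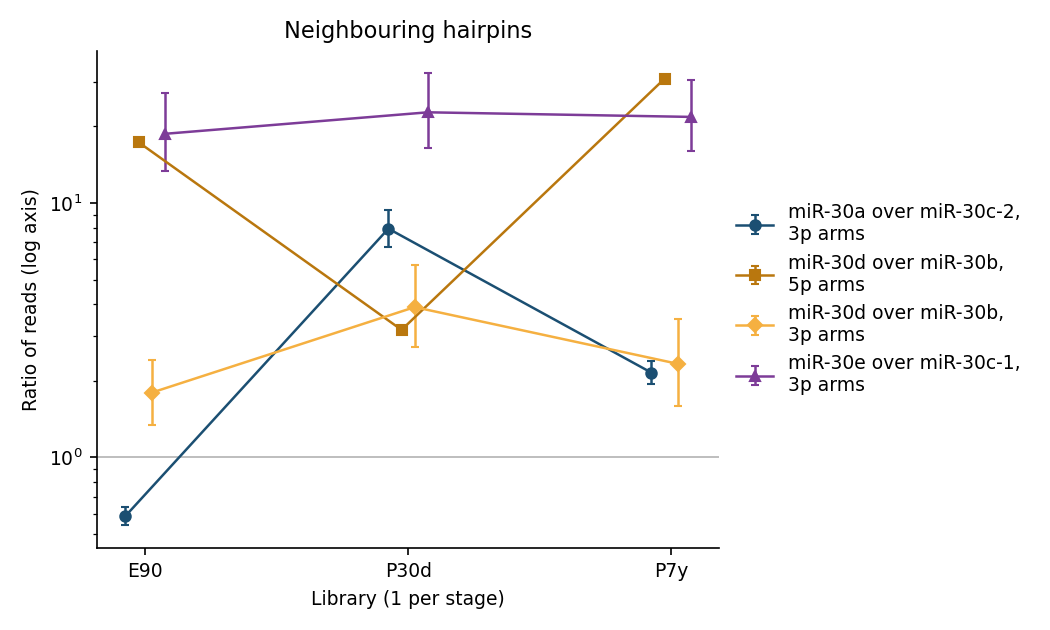
Ratio of reads (log axis) of neighbouring hairpins in the E90, P30d and P7y libraries, 1 per stage, for the arms named in the legend, with exact conditional 95% intervals. The miR-30a over miR-30c-2 ratio peaks at 7.93 at P30d, the miR-30d over miR-30b ratio of 5p arms dips to 3.17 there, and that of miR-30e over miR-30c-1 runs from 18.7 to 22.7 with all reads (9.74 to 35.9 with the most frequent read of each arm only).

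The tables also give the most frequent read of each arm, and its ends differed between libraries for some members. The most frequent miR-30d-5p read was 24 nt long at E90 and P7y and 20 nt at P30d, where it lacked 4 bases at the 3′ end.
miR-30d-5p read at E90 and P7y: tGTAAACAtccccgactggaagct
miR-30d-5p read at P30d: tGTAAACAtccccgactgga
In the E90, P30d and P7y libraries these reads made 27.7%, 43.1% and 28.9% of the arm, and bases 2 to 8, in capitals, are the same. The most frequent miR-30c-5p read was 23 nt at E90 and P7y and 24 nt at P30d, where it ran on at the 3′ end to a T. That T is the next base in both miR-30c hairpins. The most frequent read was thus longer at P30d. It held 50.3%, 62.9% and 44.2% of the arm at E90, P30d and P7y. miR-30a-5p, miR-30e-5p and miR-30b-5p kept the same most frequent read in all 3 libraries. That of miR-30a-5p was 24 nt, 2 bases longer than the listed mature sequence, and held 37.3%, 43.9% and 31.0% of its reads at E90, P30d and P7y. That of miR-30b-5p was 22 nt and held 85.5%, 90.2% and 81.4%, and that of miR-30e-5p 62.1%, 73.2% and 62.4%. Over 318 of the miRNAs compared, those with a most frequent read in every library, 156 (49.1%) had the same one in all.

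A shift at the 5′ end, which changes the seed, was seen in the most frequent read of miR-30d-3p. That read began 1 base later at P30d and P7y than at E90, which moves bases 2 to 8, in capitals, by that base.
miR-30d-3p read at E90: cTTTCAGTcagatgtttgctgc
miR-30d-3p read at P30d and P7y: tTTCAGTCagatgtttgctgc
The E90 sequence had 66 copies of 133 reads of the arm at E90, and the later-starting one 44 of 153 at P30d and 38 of 91 at P7y. Each number counts copies of that exact sequence, so the share of all reads with either start was not measured.

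Of 169 miRNAs outside the family that averaged at least 100 CPM, those nearest to miR-30a-5p in course over the 3 libraries were miR-143-5p, miR-215-5p and miR-126-3p. Their Euclidean distances over centred log2 CPM were 0.24, 0.29 and 0.29. miR-126-3p, the endothelial marker, had 11832 CPM at E90, 7426 CPM at P30d and 10952 CPM at P7y. Nearest to the family sum were miR-5109-5p, miR-92a-3p and miR-335-3p, at 0.01, 0.22 and 0.25. With 3 libraries such likeness is a description.

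Hepatocyte and biliary miRNAs give the setting of these values. Of 11 hepatocyte arms, 4 were called higher and 1 lower in P30d over E90, with a median log2 ratio of 0.74, against -0.11 over all miRNAs, of which 33.4% were higher and 35.3% lower. miR-122-5p, which marks hepatocytes, had 128017 CPM at E90, 213802 CPM at P30d and 37870 CPM at P7y, and miR-101-3p 65392, 5493 and 119966 CPM. miR-192-5p stayed nearer, with 109467, 109310 and 154836 CPM, and miR-148a-3p had 75920, 41822 and 95666 CPM. The longer biliary list adds miR-23b, miR-27b and miR-24, which are not specific to bile duct cells, to the epithelial markers given above. Of its 11 arms past the filter, 5 were higher and 4 lower in P30d over E90, with a median of 0.66, where 33.4% of all miRNAs were higher and 35.3% lower. The summed epithelial markers alone were lower at P30d, at 465.1 CPM, than at E90, at 2102 CPM. Their arms went both ways in P30d over E90. miR-375-3p, miR-200b-3p, miR-31-5p and miR-429-3p were called lower, at -3.63, -2.42, -5.25 and -1.90. miR-200a-3p and miR-141-3p were called higher, at 1.12 and 1.26. miR-27b-3p, miR-24-3p and miR-23b-3p had 25661, 6333 and 2584 CPM at P30d, against 16288, 2486 and 675.3 CPM at E90. miR-375-3p, known from endocrine and biliary epithelium, had 104.1 CPM at P30d, against 1289 CPM at E90. In P7y over P30d 2 hepatocyte arms were higher and 6 lower by CPM, and 2 arms of the longer biliary list higher and 7 lower, beside 13.8% and 55.8% of all miRNAs. With TMM these were 4 and 5, and 4 and 3, beside 27.0% and 36.2%. In P7y over E90 1 hepatocyte arm was higher and 2 lower by CPM. Of the longer biliary list 0 arms were higher and 5 lower, beside 12.3% and 50.9% of all miRNAs. The 5 were all epithelial markers: miR-200b-3p (-1.78), miR-200a-3p (-1.20), miR-31-5p (-3.14), miR-141-3p (-2.34) and miR-429-3p (-4.35). miR-375-3p was at -0.87, and neither it nor any arm of miR-23b, miR-27b or miR-24 was called. With TMM 5 hepatocyte arms were higher and 0 lower, beside 27.6% and 33.7%. The longer biliary list, which pools both kinds of arms, then had 3 higher and 3 lower.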

How the data were processed

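Each library's table, deposited by the authors, lists the arms of hairpins. Reads were mapped to miRBase hairpins of pig and other mammals, placed on the pig genome and, where they matched several hairpins, divided among these, per the file headers, so the deposited numbers per arm are expected counts. The deposited copies of the most frequent read are whole counts. The build, from the submitters' processing notes, was Sscrofa10.2. Neither aligner nor miRBase release is stated in those sources. Chromosomes were named from RefSeq miRNA genes on the same genome record, of which 17 of 18 were on chromosome 1, 8 of 8 on chromosome 4 and 16 of 16 on chromosome 6.

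Expected counts were summed per member and arm and rounded. CPM are per 1000000 reads of known hairpins. Comparisons kept the 326 of 987 mature miRNAs averaging at least 10 CPM. Names other than members that shared a most frequent read were merged (18 names). Ratios have exact conditional binomial intervals, shares exact Clopper-Pearson intervals, and levels exact Poisson intervals, all at 95%. Arm balance was log2 of the 5p to 3p read ratio, with copies of a hairpin summed and 0.5 added to both counts. With 1 library per stage no p-value is given. Every arm of the 5 members is named, the 4 most abundant arms of the hepatocyte and biliary lists, and the 3 nearest miRNAs. Further arms of the cell type lists are named beside their sums, as minor strands or for lacking reads. Members and lists were chosen with earlier results of these data known. Alternatives were TMM (edgeR 4.0.16) and DESeq2 1.42.0 size factors, other totals, filters and read choices. Calculations used Python 3.11.15, SciPy 1.17.1, pandas 2.3.3, NumPy 2.4.6, R 4.3.3 and matplotlib 3.10.9, and the ratio was tested on simulated data.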

Additional observations from a re-analysis of the deposited data

How the results depend on the processing

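No paired analysis was possible because each stage has 1 library. Library scaling decided the counts at P7y. With edgeR TMM factors 3 miR-30 arms were higher and 3 lower in P7y over P30d, and 2 higher and 0 lower in P7y over E90, and DESeq2 size factors gave the same 3, 3, 2 and 0. The other counts were within 1.5 times those by CPM, except that a filter at a mean of 100 CPM left 0 arms lower in P30d over E90, since miR-30c-3p was then not compared. The signs in P7y over E90 turned for miR-30a-5p, miR-30d-5p and miR-30d-3p, to 0.78, 0.55 and 0.37 with TMM and 0.84, 0.61 and 0.43 with DESeq2, and for miR-30a-5p to 0.083 when the 5 most abundant miRNAs of each library were left out of the total. miR-30e-5p in P30d over E90 turned to -0.067 with DESeq2, -0.024 with a total of all groups and -0.12 with reads without a mismatch. With the representative read only, miR-30d-5p turned to 0.10 in P30d over E90 and to -0.46 in P7y over P30d, miR-30a-5p to -0.27 in P7y over P30d, and the log2 of miR-30a-3p over miR-30c-2-3p at P7y to -0.021. For miR-30d-5p this sets a 20 nt read at P30d against 24 nt reads at E90 and P7y, so it compares different sequences.

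The family share at E90, P30d and P7y was 16.8%, 15.2% and 14.8% of a total that leaves out those miRNAs, and 8.92%, 7.26% and 6.24% of reads without a mismatch. Of a total of all groups it was 7.63% at E90 and 6.70% at P30d. Of 237 log2 ratios under an alternative, 197 kept sign and side of the threshold. Among the 197 were 27 without a filter and 21 with a filter at 100 CPM, which could not move because a filter changes no ratio. With TMM 12 were the same, 7 weaker, 5 stronger and 3 reversed, and with DESeq2 11, 7, 5 and 4. Of 60 arm balances 41 stayed within counting error and 19 did not. Of the 41, 15 were under a minimum of 200 reads per hairpin, which left the values as they were. Another 15 were with hairpins placed on the genome only. With reads without a mismatch 6 balances moved and 9 stayed, and with the representative read 13 moved and 2 stayed. Of 45 shares within the family 27 moved, and of 24 ratios of neighbours 13 moved and 1 turned. The representative read gave miR-30b 3.07% and 2.003% of the family at E90 and P7y and miR-30e 30.3% and 19.3%. With 1 library per stage, precision is limited by the unknown spread between animals, and for miR-30b-3p, miR-30d-3p and miR-30c-1-3p by reads as well.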
